A study of Mus musculus with 2 samples.

Results

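The cells described here come from the mouse optic glioma and are called macrophages after the rule that selected them. They carry both complement C1q and major histocompatibility complex class II (MHC-II) transcripts at or above set counts. The name was not borne out for every cell, as 534 (30.2%) fell into clusters with a marker of another cell type among the leading genes. Cells were selected on their raw UMI counts (unique molecular identifiers, each standing for 1 captured transcript). A member had at least 5 UMIs summed over *C1qa*, *C1qb* and *C1qc* and at least 10 over *H2-Aa*, *H2-Ab1* and *H2-Eb1*. It also had at most 1 UMI of the microglia genes *Tmem119*, *P2ry12* and *Sall1*, and at most 3 of the border macrophage genes *F13a1*, *Lyve1*, *Pf4* and *Cbr2*. Of 25652 cells that passed quality limits, 1766 were chosen by this rule (6.88%, exact 95% interval 6.58 to 7.20). They were 208 of 8834 cells in library C-ON (2.35%, 2.05 to 2.69) and 1558 of 16818 cells in library FMC_new (9.26%, 8.83 to 9.71). These intervals cover counting error only.

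Both libraries came from optic nerves of Nf1OPG mice, which carry *Nf1* flox/mut and GFAP-Cre on a C57BL/6 background, so that *Nf1* is lost in the cells in which the GFAP promoter drives Cre. Per the labels, nerves of 10 mice aged 12 weeks were pooled, dissociated and cleared of myelin and debris, and 5′ single-cell libraries were made. No treatment is given, and C-ON is titled as a control although its genotype label is the same as that of FMC_new. The 2 libraries were therefore 2 samples of 1 condition with no control genotype. As the difference between libraries was fitted, p-values measure only how far differences between groups of cells varied between these 2 libraries. That variation may be technical.

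Macrophages of the central nervous system comprise microglia in the tissue itself and border macrophages of the meninges and vessels, and monocytes and dendritic cells can enter from the blood. C1q starts the classical complement cascade and is made in the brain mainly by macrophages, whereas mature dendritic cells make little of it. MHC-II molecules present extracellular peptides to CD4 T cells; their α and β chains assemble with the invariant chain CD74, and H2-DM exchanges its remnant for peptide under the control of H2-O. The transactivator CIITA drives this gene set, and interferon-gamma is its best known inducer in macrophages.

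The sums used by the rule are given as a description. The C1q sum had a median of 41 UMIs in C-ON (range 5 to 262) and 30 in FMC_new (5 to 506), and the MHC-II sum had medians of 113 (11 to 569) and 60 (10 to 709). The microglia genes were at 0 in 76.4% and 68.9% of members, and the border genes in 80.8% and 81.1%. Many cells lay close to the limits. In FMC_new, 127 members had 5 to 6 C1q UMIs and 162 cells that otherwise met the rule had 3 to 4. At the MHC-II limit, 76 members had 10 to 12 UMIs and 86 cells had 7 to 9. At the microglia limit, 484 members had 1 UMI and 248 cells outside had 2, and at the border limit 47 members had 3 and 41 cells outside had 4. In C-ON the same pairs were 14 and 21, 3 and 9, 49 and 20, and 9 and 5 cells.

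**Figure D1:**
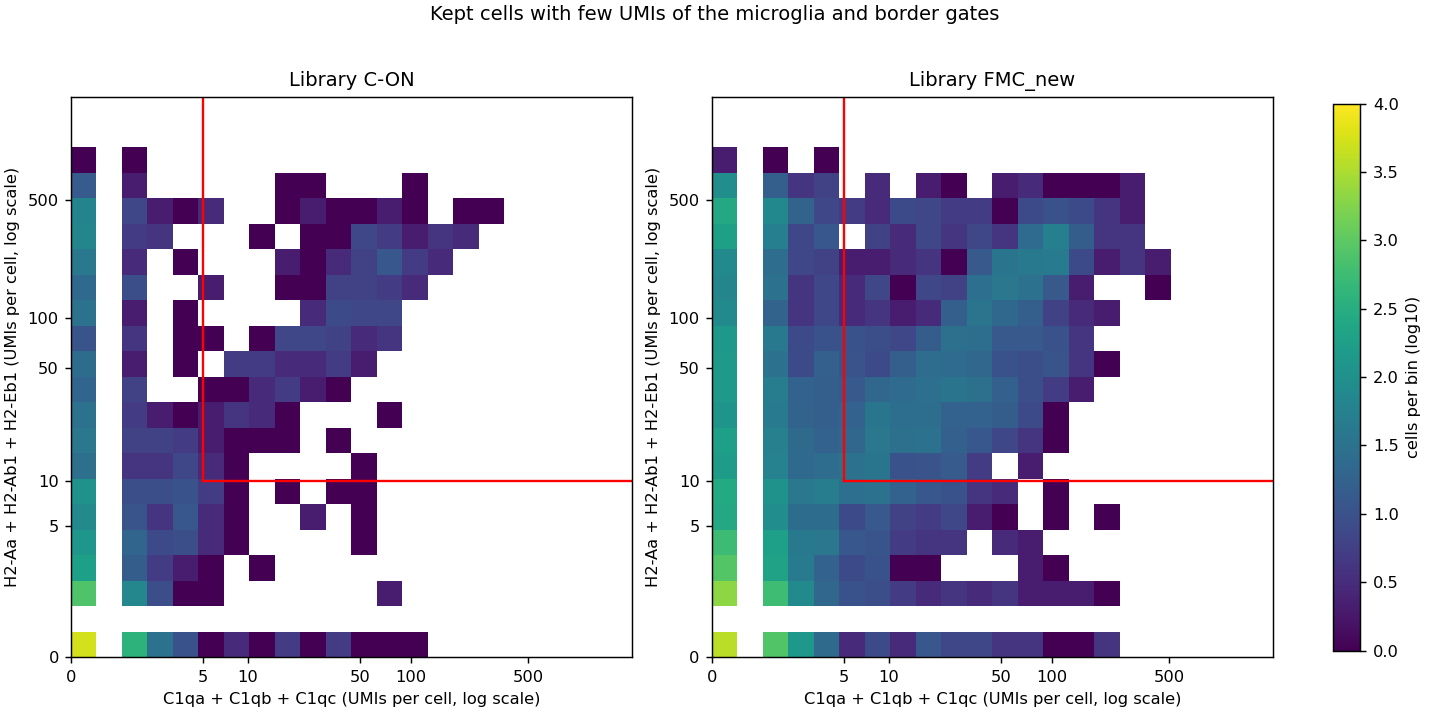
Number of kept cells (colour, log10) by the summed UMIs of the C1q genes (horizontal) and of the MHC-II genes (vertical), both on log scales, among cells that met the microglia and border limits of each library. The red lines enclose the members, 208 in C-ON and 1558 in FMC_new, which run without a gap into the cells with fewer UMIs of either sum, and white bins hold no cell.

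The 3 C1q genes lie side by side on chromosome 4 on the minus strand (*C1qa* chr4:136895917-136898803, *C1qc* chr4:136889804-136893065, *C1qb* chr4:136880129-136886187, GRCm38). The MHC-II genes lie on chromosome 17 (*H2-Ab1* chr17:34257689-34269419 and *H2-Eb1* chr17:34305867-34316674 on the plus strand, *H2-Aa* chr17:34282744-34287823 on the minus strand). Promoters of MHC-II genes are known for a shared upstream module that ends in a CCAAT-type element bound by the factor NF-Y, and the genes of the pathway are transcribed together. The letters TGATTGG, read on either strand with no other motif searched, were looked for in RefSeq promoters of GRCm38.p6 (250 bases before to 50 after each gene start). They were found in those of *H2-Aa*, *H2-Eb1*, *H2-DMb1*, *H2-DMb2*, *H2-Oa* and *H2-Ob*, in each case on the gene's own strand. They were not found in either promoter of *H2-DMa* or in those of *C1qb*, *C1qc*, *Ccr2* and *Cd209a*. *H2-Ab1*, *Ciita* and *C1qa* had no promoter among those searched and were not examined. Of all 32851 promoters in the table, 2568 (7.82%) held the letters. The 4 windows below are shown because *H2-Aa* and *H2-Eb1* were among the selecting genes and *H2-DMb1* and *H2-Oa* differed from another gate in the comparisons that follow; each is centred near the motif, in capitals, and runs 5′ to 3′ on the strand of the gene, with *H2-Aa* from chr17:34287837-34287918 (minus), *H2-Eb1* from chr17:34305761-34305842 (plus), *H2-DMb1* from chr17:34153083-34153164 (plus) and *H2-Oa* from chr17:34092289-34092370 (plus).
H2-Aa: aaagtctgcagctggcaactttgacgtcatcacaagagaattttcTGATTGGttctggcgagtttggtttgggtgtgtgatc
H2-Eb1: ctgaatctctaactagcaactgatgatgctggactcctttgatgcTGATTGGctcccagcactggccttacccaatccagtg
H2-DMb1: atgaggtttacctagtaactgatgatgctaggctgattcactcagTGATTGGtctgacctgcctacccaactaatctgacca
H2-Oa: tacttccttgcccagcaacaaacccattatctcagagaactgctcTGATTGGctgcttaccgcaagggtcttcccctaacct
A match is a description of these letters and does not show that a factor binds there.

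Macrophage markers that the rule did not use were present in the summed members. *Csf1r*, the receptor that macrophages need for survival, was at 444 and 419 CPM (the UMI count scaled to an equal total, in C-ON and FMC_new). *Apoe*, a lipid carrier of activated macrophages, was at 5701 and 6763 CPM. Shares of cells were read after drawing 1000 UMIs from each cell (thinning), for which 2 and 41 members were too shallow. A *Csf1r* UMI was then found in 37.4% and 36.5% of members (77.9% and 66.3% unthinned), against 0.0683% and 0.404% of cells with an oligodendrocyte profile (C1q sum of 0 or 1, over 2% of UMIs from 5 oligodendrocyte genes). Median depth was 4693.5 and 3236.5 UMIs in members and 7735 and 6636.5 in those oligodendrocytes. The *Csf1r* share was thus far above that of these oligodendrocytes in both libraries. The opposite C1q limits of members and oligodendrocytes favour this direction. The share also does not tell a macrophage from a droplet that held a macrophage and another cell.

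The members were nevertheless a mixture. Clustered on variable genes, leaving out those of the gates, antigen receptors, ribosomes and mitochondria as well as *Gh*, *Prl*, *Pomc* and *Jchain*, and with each library scaled on its own, they fell into 14 clusters. The 4 largest held 1010 cells (57.2% of members, 71.6% in C-ON and 55.3% in FMC_new), and none had a listed marker of another cell type among its 10 leading genes. In 6 clusters with 534 cells (30.2%; 27.4% in C-ON and 30.6% in FMC_new), such a marker led. Cluster 5 (180 cells) was led by myelin genes, with *Mag* at 2473 CPM against 30.4 in cluster 1. Cluster 6 (169 cells) was led by T and NK cell genes (*Cd3e*, *Nkg7*, *Xcl1*), cluster 8 (78 cells) by *Cd79a* and *Mzb1* of the B lineage, and cluster 10 (63 cells) by *Cspg5*, *Lhfpl3* and *Pdgfra* of oligodendrocyte precursors. Clusters 12 (29 cells) and 14 (15 cells) were led by the neutrophil gene *S100a9* and the fibroblast gene *Dcn* with their partners. Cluster 7, all of its 100 cells from FMC_new, was led by the pituitary hormone subunits *Cga* and *Tshb*. It could not count among the 6 clusters, since the listed pituitary markers *Gh*, *Prl* and *Pomc* were also left out of the leading genes. Cluster 11 (35 cells, all of FMC_new), led by *Mia*, *Igfbp5* and *Cyp2f2*, was outside the 6 too. Cells among the 10% of their library with the highest doublet scores made up 65.0% of cluster 5, 51.5% of cluster 6 and 47.6% of cluster 10, against 0% to 4.87% of clusters 1 to 4.

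**Figure D2:**
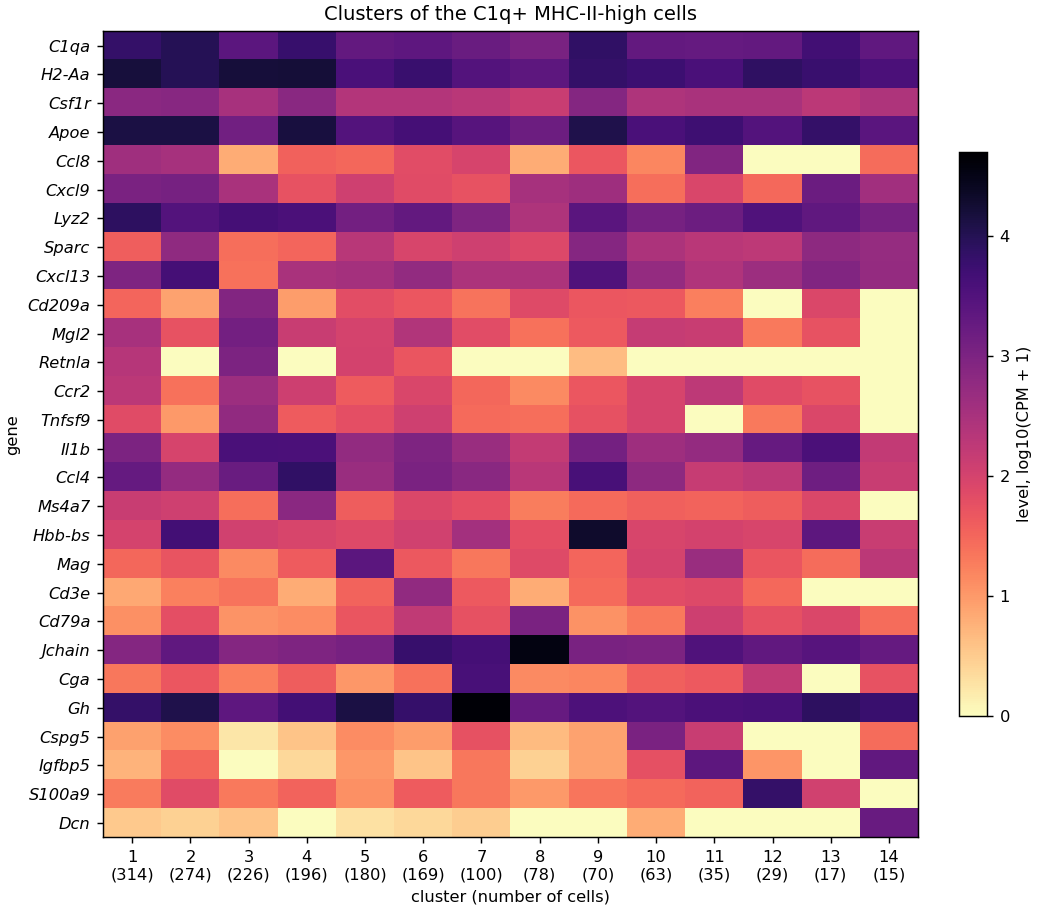
Levels (colour, log10 of CPM + 1) of 28 genes in the summed cells of the 14 clusters of members, with the number of cells below each cluster. Clusters 1 to 4 hold macrophage genes in different proportions, whereas *Mag* reaches 2473 CPM in cluster 5 and *Cd3e*, *Cd79a*, *Cga*, *Cspg5*, *S100a9* and *Dcn* mark clusters 6, 8, 7, 10, 12 and 14.

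RNA of other cell types was also spread thinly over nearly all members. At least 2 UMIs of the oligodendrocyte list (myelin genes such as *Mbp* and *Mag*) were found in 96.6% of members of C-ON and 96.3% of FMC_new, and this list made up over 2% of UMIs in 39 (18.8%) and 193 (12.4%) of them. The growth hormone gene *Gh*, a pituitary transcript, was absent from the members of C-ON and at 10139 CPM in those of FMC_new. *Jchain*, a plasma cell gene, was seen in 71.7% of thinned members of FMC_new, but also in 53.7% of the oligodendrocytes. Its source in the members was not tested. No doublet caller result could be used, since the automatic threshold marked 1 of 8834 and 0 of 16818 cells. The libraries had 296 barcodes in common, 188 among kept cells; 6 members of C-ON and 29 of FMC_new carried such a barcode, and 0 were members in both. Counts of called genes, overall and per list, are therefore also given with a filter chosen after the data were seen, under which a cell of any gate was left out when its share of UMIs from any of 12 lists of other cell types exceeded the 95th percentile of the microglia-gated cells of its library. This kept 101 of 208 and 604 of 1558 members, or 48.6% and 38.8%. It kept 70.7% of cluster 1, 34.7% of cluster 2, 79.6% of cluster 3 and 61.7% of cluster 4. The mix of these clusters among the members therefore changed with it as well.

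Members were compared with 3 other gates of the same libraries on UMIs summed per library and gate. Microglia-gated cells (175 in C-ON and 1160 in FMC_new) had at least 5 C1q and 3 microglia UMIs and at most 3 of the border genes. Border-gated cells (159 and 282) had at least 5 C1q UMIs, at least 4 of the border genes and at most 1 microglia UMI. Dendritic cell-gated cells (229 and 857) had at most 1 C1q UMI, at least 10 MHC-II UMIs and at least 2 UMIs of *Cd209a*, *Flt3* and *Zbtb46*. They also had at most 1 microglia UMI and at most 3 of the border genes. Median depth was 4693.5 and 3236.5 UMIs in members and 6037 and 6257 in microglia-gated cells. It was 4016 and 4676.5 in border-gated and 8264 and 8397 in dendritic cell-gated cells. As the limits were raw counts, a shallow cell met an upper limit more easily. The part of depth in the comparisons was not tested. The gates differ by construction, so genes that travel with a gate gene had to differ, and the gate genes themselves were not tested. A further 11387 genes were tested with edgeR. The 3 comparisons share the summed members, and none is independent of the others.

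Against microglia-gated cells, members had more of *Cd74*, *Ciita* and both H2-DMb genes, of most listed monocyte and dendritic cell genes and of *Il1b* and *Cxcl2*, and less of microglial, lysosomal and macrophage transcription factor genes. In all, 1464 genes (12.9% of those tested) were higher and 1249 (11%) were lower at an adjusted p below 0.05. Of these 2713 genes, 2568 differed in the same direction in C-ON alone and 2713 in FMC_new alone. With the filter on other cell types, 1092 of 9647 genes (11.3%) were higher and 827 (8.57%) lower, and 729 and 709 of these were shared with the unfiltered calls.

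The selecting MHC-II genes were at 9874 and 9843 CPM for *H2-Aa* in members, against 5460 and 5601 in microglia-gated cells, as the rule made them. Their sum was at 26992 and 27036 CPM in members and at 15359 and 25013 in border-gated cells. In dendritic cell-gated cells it was higher, at 33865 and 35367 CPM. The summed C1q genes were at 8784 and 10826 CPM in members. This was below the 21038 and 22169 CPM of microglia-gated and the 13909 and 14913 of border-gated cells. Of 13 genes of MHC-II processing, 4 were higher and 2 lower than in microglia-gated cells (6 and 2 when filtered), with a median log2 fold change of 0.17 against 0.01 over all genes tested. *Cd74*, the invariant chain, was at 30326 and 28924 CPM in members and at 22053 and 22354 in microglia-gated cells, and was called higher. *Ciita*, the transactivator of the pathway, was at 70.7 and 46.3 CPM against 26.4 and 21.98 (log2 fold change 1.304 ± 0.28 SE, adjusted p = 0.00772). *H2-DMb2*, a chain of the peptide exchange factor, was at 250.3 and 255 CPM against 163 and 173 (0.65 ± 0.14, adjusted p = 0.00824). *H2-DMb1* was also called higher, whereas *H2-DMa* was not, at 539 and 579 CPM against 435 and 528 (adjusted p = 0.286), except with the filter. 2 proteases that cut antigen or invariant chain went the other way. *Ctss* was at 2103 and 2464 CPM against 6307 and 6480.2 (−1.42 ± 0.11, adjusted p = 3.84e-05), and *Lgmn* was at 456 and 578 CPM against 2443 and 2233 (−2.10 ± 0.20).

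The co-stimulatory and checkpoint ligands were split, with 2 of 11 tested higher and 5 lower (3 and 2 when filtered). *Tnfsf9*, the ligand of the T cell receptor 4-1BB, was at 204 and 144 CPM in members and at 7.43 and 20.5 in microglia-gated cells (log2 fold change 3.37 ± 0.31). *Cd40*, which receives T cell help, was at 56.2 and 53.3 CPM against 22.3 and 18.1 (1.51 ± 0.23). *Vsir*, an inhibitory ligand, was lower at 111 and 112 CPM against 309 and 269.7 (−1.30 ± 0.14). *Cd86* did not pass the test (−0.16 ± 0.19, adjusted p = 0.606). Of 13 genes of the interferon-gamma response, 4 were lower than in microglia-gated cells (*Gbp5*, *Gbp7*, *Irf1*, *Socs1*), of which *Gbp7* was also lower with the filter. Of 9 MHC class I presentation genes, 3 were lower (*B2m*, *H2-D1*, *H2-K1*), while with the filter none was lower and *Psmb8* was higher.

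Of 10 tested monocyte genes, 7 were higher in members than in microglia-gated cells and 0 lower (6 and 0 of 8 when filtered). *Ccr2*, the receptor that brings monocytes into tissue, was at 186 and 145 CPM against 15.7 and 13.5 (log2 fold change 3.57 ± 0.20, adjusted p = 5.46e-06; 4.64 when filtered). It was detected in 18.4% and 10.9% of thinned members (36.5% and 23.7% unthinned) and in 0.154% and 0.955% of oligodendrocytes. *Tgfbi* was at 258 and 178 CPM against 52.8 and 45.5, and *Clec12a* at 154 and 96.2 against 32.2 and 10.6. Dendritic cell genes were higher for 6 of 10 and lower for 1, both with and without the filter, among them the lectin *Clec10a* at 29.8 and 34.6 CPM against 0.825 and 4.60. Members and microglia-gated cells did not overlap for any of these 4 genes, which also held for 53.0% of all genes tested. Among the genes furthest above microglia-gated cells were the secreted factor *Retnla* (266 and 241 CPM against 0 and 3.35), the elastase *Mmp12* (52.8 and 68.7 against 0 and 2.11), the lectin *Mgl2* (396 and 353 against 0.825 and 21.6), *Clec4b1*, *Tnip3* and the chemokine *Ccl17*, each also called with the filter. *Igkv6-15* and *Ighv1-64*, immunoglobulin segments of the B lineage, were also among them, and neither was called with the filter (adjusted p = 0.1799 and 0.0839). *Retnla*, *Mgl2*, *Clec4b1*, *Tnip3* and *Ccl17* were leading genes of cluster 3 (226 cells). *Retnla* was at 1014 CPM in that cluster and at 216, 0 and 0 in clusters 1, 2 and 4. The filter used no dendritic cell or monocyte list and kept 79.6% of cluster 3. The part of this cluster in the differences was not tested.

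All 10 homeostatic microglia genes were lower in members than in microglia-gated cells, with and without the filter, a direction that the limit on 3 other microglia genes favours. *Sparc*, a matrix protein that microglia secrete, was at 86.8 and 173 against 1327 and 1211 (log2 fold change −3.35 ± 0.33) and *Olfml3* at 45.1 and 64.8 against 508 and 502 (−3.11 ± 0.17). Of 10 macrophage transcription factors, 8 were lower and 0 higher (7 and 0 when filtered). *Irf8*, which microglia and dendritic cells need, was at 131 and 194 CPM against 325 and 379 (−1.04 ± 0.19). Lysosomal genes were lower for 9 of 13 (8 when filtered), led by the protease *Ctsd* at 653 and 999 CPM against 3754 and 3842 (−2.16 ± 0.16). Fc receptors were lower for 3 of 5 and complement genes for 5 of 11, both with and without the filter, with *Cfp* (properdin, which sustains the alternative pathway) higher at 57.9 and 81.7 CPM against 4.95 and 7.70. *Trem2*, a lipid sensor of disease-associated microglia, was at 236 and 280 CPM against 820 and 946 (−1.71 ± 0.18).

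Other cell types moved with this comparison. All 5 oligodendrocyte genes were higher in members (2 of 5 with the filter), the summed list being at 15793 and 7224 CPM in members and at 6533 and 4384 in microglia-gated cells, with none of its genes at 0. The plasma cell list was at 2992 and 5770 CPM against 198 and 1446, with 3 of 4 genes higher (*Igha*, *Jchain*, *Mzb1*), and 3 with the filter (*Igha*, *Ighm*, *Jchain*). The T cell list was at 130.2 and 269 CPM against 35.5 and 145. The pituitary list was at 2.55 CPM in members of C-ON, with *Gh* and *Prl* at 0, and at 19100.3 in those of FMC_new, against 4.13 and 4755. Their part in the counts of called genes was not tested beyond the filter. The filter also changed the mix of clusters, as given above. It moved the changes of *Ccr2*, *Tnfsf9*, *Mgl2* and *Cxcl2* away from 0, and the part of that mix was not tested. It moved *Igkv6-15* from 7.10 to 0.52, *Mag* from 1.05 to −0.79 and *Mog* from 1.19 to −0.41, but *Ighm* from 0.37 to 0.78; the filter itself uses lists of oligodendrocyte and plasma cell genes.

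**Figure D3:**
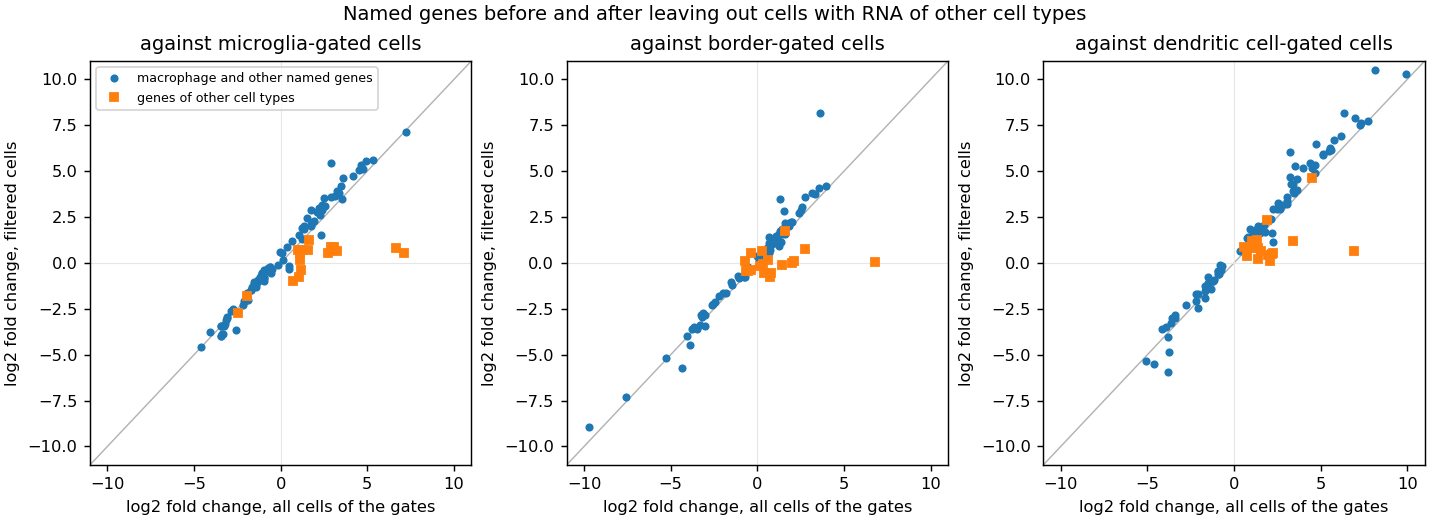
Log2 fold changes of the named genes in all cells of the gates (horizontal) and after leaving out cells with a high share of RNA of other cell types (vertical), for each of the 3 comparisons; the diagonal marks no change. Most genes of other cell types (orange squares), among them genes of the lists that the filter uses, lie nearer 0 on the vertical axis, while *Ccr2* against microglia-gated cells moves from 3.57 to 4.64.

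The fewest genes were called against border-gated cells. Members had less of the scavenger and clearance receptors, *Ccl2* and *Ccl7*, and more of *Itgax*, *Cxcl9*, *Cd274* and the H2-O genes. Here 275 genes (2.42%) were higher and 312 (2.74%) lower, of which 543 of 587 had the same direction in C-ON alone and 587 in FMC_new alone. With the filter, 377 (3.91%) were higher and 262 (2.72%) lower, and 175 and 199 were shared with the unfiltered calls. The border gate held 441 cells, the fewest of the 4 gates, and the part of that number in the count was not tested.

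Of 10 border macrophage genes not used in the gate, 7 were lower in members and 0 higher (7 and 1 when filtered). *Cd163*, the haemoglobin scavenger receptor, was at 25.5 and 15.7 CPM against 382 and 291 (log2 fold change −4.05 ± 0.20, adjusted p = 2.47e-06). *Folr2* was at 8.51 and 4.54 CPM against 255 and 186, and the ficolin *Fcna* at 2.55 and 0.605 against 208 and 186 (−7.60 ± 0.35). *Cd209f* had no UMI in any member, against 39.6 and 27.7 CPM. The receptors that clear dying cells followed them, with 5 of 8 lower and 0 higher (6 and 0 when filtered), *Timd4* being at 5.96 and 11.5 CPM against 125 and 117. *Apoe* was lower too, at 5701 and 6763 CPM against 17181 and 17615 (−1.47 ± 0.25, adjusted p = 0.00770). *Lyz2*, a lysozyme of myeloid cells, was at 4378 and 3255 CPM in members and 10043 and 10379 in border-gated cells.

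MHC-II processing genes were higher than in border-gated cells for 3 of 13 and lower for 0 (6 and 0 when filtered). *H2-Oa*, a chain of the H2-DM inhibitor whose promoter window is shown above, was at 83.4 and 117 CPM against 2.48 and 28.4 (log2 fold change 2.53 ± 0.41, adjusted p = 0.00624). Its partner *H2-Ob* was at 33.2 and 35.9 CPM against 11.2 and 16.8 (1.26 ± 0.24). *Cd74* and *Ciita* passed the test with the filter only. Ligands that restrain or stimulate T cells were higher for 4 of 11 and lower for 1 (5 and 0 when filtered). *Cd274*, which encodes PD-L1, was at 37.5 and 72.2 CPM against 8.67 and 12.9 (2.38 ± 0.25, adjusted p = 0.000432), and *Tnfsf9* was at 204 and 144 against 50.8 and 45.8 (1.85 ± 0.30). *Cxcl9*, an interferon-gamma target that attracts T cells, was at 293 and 416 CPM against 32.2 and 38.0 (3.35 ± 0.37). It was the only one of 13 interferon-gamma response genes called in all cells, while *Gbp2*, *Gbp4* and *Gbp5* were among the 5 called with the filter. The integrin *Itgax* (CD11c), shared by dendritic cells and activated macrophages, was at 56.2 and 76.9 CPM against 8.67 and 4.51 (3.53 ± 0.30), and *Il1b* at 1589 and 1564 against 439 and 475 (1.81 ± 0.14). Of 10 homeostatic microglia genes, 3 were higher than in border-gated cells and 1 lower (2 and 1 when filtered).

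Against dendritic cell-gated cells, members had more of most listed Fc receptor, complement, lysosomal and clearance genes and less of the listed dendritic cell genes. In total 1960 genes (17.2%) were higher and 1607 (14.1%) lower, 3416 of 3567 with the same direction in C-ON alone and 3564 in FMC_new alone. With the filter, 1128 (11.7%) were higher and 837 (8.68%) lower, and 887 and 740 were shared with the unfiltered calls. The dendritic cell gate excluded C1q, so genes that accompany C1q had to be higher in members. It also required UMIs of dendritic cell genes, which favours lower values of genes that accompany those in members.

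All 10 dendritic cell genes were lower in members (8 of 10 with the filter), a direction that the limit on 3 other dendritic cell genes favours. *Xcr1*, a receptor of cross-presenting dendritic cells, was at 0 and 5.75 CPM against 108 and 147 (log2 fold change −5.07 ± 0.44). *Ccr7*, which guides mature dendritic cells to lymph nodes, was at 0.851 and 18.0 CPM against 276 and 161 (−3.81 ± 0.76, adjusted p = 0.00387), and *Itgae* at 11.9 and 21.3 against 197 and 247. *Irf8* was at 131 and 194 CPM against 478 and 445, and all 8 cell cycle genes were lower (5 of 7 with the filter). On the macrophage side, *Trem2* was at 236 and 280 CPM against 2.58 and 1.23 (7.28 ± 0.28, adjusted p = 2.23e-07) and *Apoe* at 5701 and 6763 against 23.8 and 71.4 (6.96 ± 0.32). Fc receptors were higher for 4 of 5 (5 when filtered), complement genes for 7 of 11 with 3 lower (7 and 1), lysosomal genes for 10 of 13 (10), and clearance receptors for 7 of 8 with 1 lower (7 and 0). *Ms4a7*, a membrane protein of tissue macrophages, was at 74.1 and 128 CPM against 0 and 0.545. Members and dendritic cell-gated cells did not overlap for any gene whose values are given here, which also held for 59.7% of all genes tested.

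Most called antigen presentation genes went the other way. Of 13 MHC-II processing genes, 2 were higher than in dendritic cell-gated cells (*Ctss*, *Lgmn*) and 6 lower (2 and 4 when filtered). *H2-Oa* was at 83.4 and 117 CPM against 351 and 416 (log2 fold change −2.07 ± 0.31, adjusted p = 0.000738), and *H2-Ob* at 33.2 and 35.9 against 154 and 145 (−2.21 ± 0.16). Ligands for T cells were higher for 2 of 11 (*Lgals9*, *Vsir*) and lower for 6 (3 and 4 when filtered), with *Cd80* at 30.6 and 29.8 CPM against 86.2 and 89.3 (−1.66 ± 0.16) and *Tnfsf9* at 204 and 144 against 474 and 420 (−1.50 ± 0.26). For the H2-O genes the members thus lay between border-gated and dendritic cell-gated cells. *Ccr2* did not pass this test, at 186 and 145 CPM against 178 and 214 (−0.39 ± 0.16, adjusted p = 0.0873). Of all 11387 genes tested, 396 were lower than in microglia-gated and higher than in dendritic cell-gated cells, and 358 the reverse. More genes, 666, were higher than in both gates, and 163 were lower than in both. These counts rest on the same summed members.

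**Figure D4:**
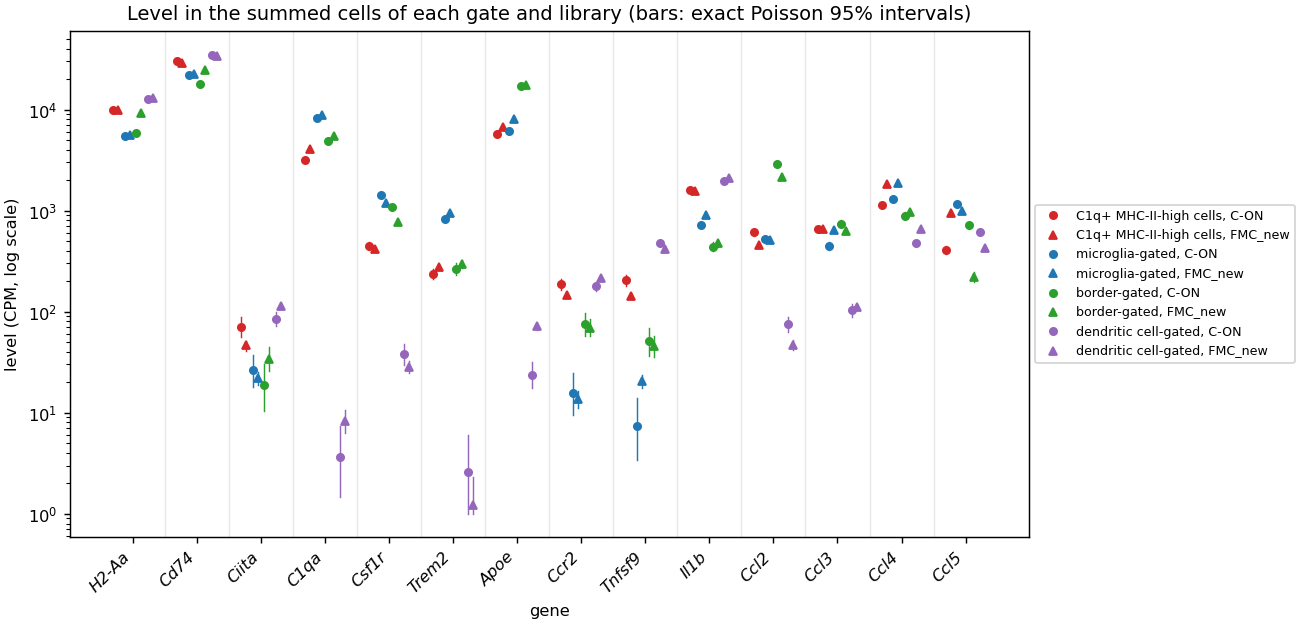
Level (CPM, log scale) of 14 genes in the summed cells of the 4 gates, circles for C-ON and triangles for FMC_new, with exact Poisson 95% intervals that cover counting error only. *Ciita* of members (red) stands above microglia-gated and border-gated cells and *Trem2* and *Apoe* of members stand far above dendritic cell-gated cells; *H2-Aa* and *C1qa* were used in the gates.

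**Figure D5:**
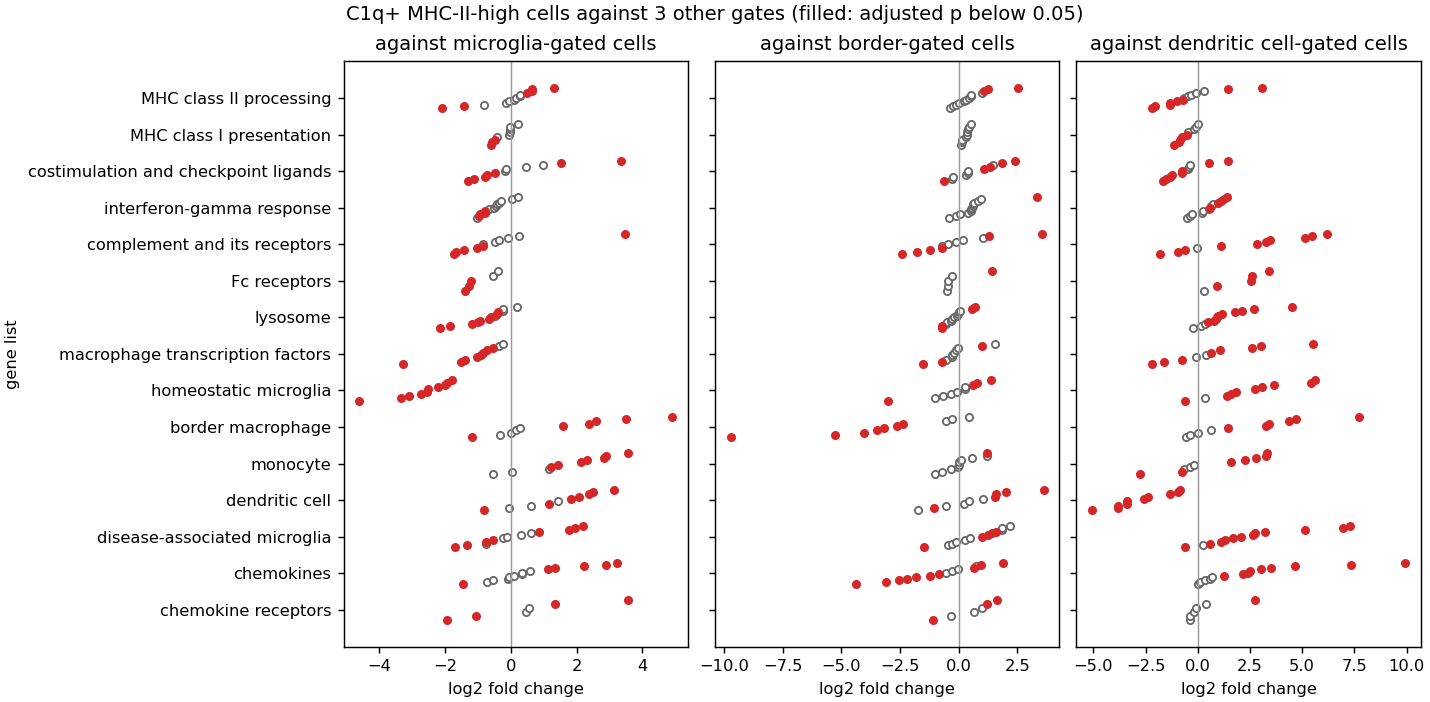
Log2 fold changes of the genes of 15 lists in the 3 comparisons, 1 circle a gene, filled where the adjusted p was below 0.05. All 10 homeostatic microglia genes lie to the left against microglia-gated cells, 7 of 10 border macrophage genes are filled to the left against border-gated cells, and all 10 dendritic cell genes lie to the left against dendritic cell-gated cells.

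In this tumor model the study followed the chemokines *Ccl2*, *Ccl3*, *Ccl4* and *Ccl5*, and used agents against the receptor CSF1R and midkine (*Mdk*), a growth factor of neurons. *Ccl2*, which attracts monocytes through CCR2, was at 608 CPM in members of C-ON and 462 in those of FMC_new. It was at 523 and 511 CPM in microglia-gated, 2889 and 2140.35 in border-gated and 74.9 and 46.7 in dendritic cell-gated cells. The level was lower than in border-gated cells (log2 fold change −2.21 ± 0.18, adjusted p = 7.10e-05) and higher than in dendritic cell-gated cells (3.04 ± 0.19), while the difference from microglia-gated cells did not pass (0.09 ± 0.17, adjusted p = 0.773). *Ccl3*, which attracts monocytes and T cells, was at 661 and 656 CPM in members, against 448 and 638, 742 and 634, and 103 and 112 CPM in the other gates in the same order. Only the last of these differences passed in all cells (2.49 ± 0.19), and that from microglia-gated cells passed with the filter (0.88, adjusted p = 0.00489). *Ccl4*, a related chemokine, was at 1141 and 1851 CPM, against 1303 and 1897, 891 and 968, and 475 and 658 CPM. It was higher than in border-gated (0.67 ± 0.15, adjusted p = 0.0316) and dendritic cell-gated cells (1.26 ± 0.15), and against microglia-gated cells the change of −0.04 ± 0.15 turned to 0.60 with the filter (adjusted p = 0.0237).

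*Ccl5* was the least even of the 4 chemokines, at 408 CPM in members of C-ON and 942 in those of FMC_new, against 1176 and 985, 719 and 221, and 618 and 428 CPM, and passed no test in any of the 3 comparisons (adjusted p = 0.461, 0.525 and 0.627). It was found in 15.5% and 28.5% of thinned members, against 1.76% and 10.2% of oligodendrocytes. In cluster 6, led by T and NK cell genes, *Ccl5* was at 2209 CPM. It was at 1105, 2451, 374 and 326 CPM in clusters 1 to 4. The source of *Ccl5* in the members was not tested. A *Ccl4* UMI was found in 34.5% and 33.6% of thinned members and in 0.495% and 3.97% of oligodendrocytes. *Csf1r* took an intermediate place, at 444 and 419 CPM against 1416.5 and 1203 in microglia-gated cells (log2 fold change −1.53 ± 0.15), 1085 and 765 in border-gated cells (−1.05 ± 0.15) and 37.7 and 28.3 in dendritic cell-gated cells (3.61 ± 0.17), all 3 also called with the filter. *Mdk* was at 1.70 and 16.8 CPM and in 0.485% and 1.65% of thinned members, against 0.171% and 0.698% of oligodendrocytes. The tumor cell markers *Neu4* (13.6 and 13.3 CPM) and *Gpr17* (27.2 and 6.51) were each in 1.46% of thinned members of C-ON, and in 0.659% and 1.05% in FMC_new, against 0.698% and 0.551% of oligodendrocytes there. Both were called higher than in dendritic cell-gated cells only, and, being on a list that the filter uses, were too rare to be tested with it.

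Chemokines as a list were higher than in microglia-gated cells for 5 of 14 and lower for 1 (9 and 2 when filtered), higher than in border-gated cells for 3 and lower for 7 (3 and 6), and higher than in dendritic cell-gated cells for 9 and lower for 0 (11 and 0). *Cxcl2*, a neutrophil attractant, was at 919 and 519 CPM in members against 93.3 and 63.1 in microglia-gated cells (log2 fold change 3.25 ± 0.18, adjusted p = 5.97e-06). *Ccl12* was at 271 and 611 CPM against 1013 and 1379.7 (−1.45 ± 0.23). *Il1b*, the inflammatory cytokine, was at 1589 and 1564 CPM against 726 and 897 (1.03 ± 0.14), and *Il1a* was lower at 81.7 and 110.2 against 778 and 752 (−2.87 ± 0.30), so that the 2 interleukin-1 genes differed in opposite directions.

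Within the members, the 4 largest clusters differed in which of these genes they held. Their defining genes come from the clustering and are given as a description with no test. Cluster 1 (73 cells of C-ON and 241 of FMC_new) was led by *Ccl8*, *C3*, *Cxcl9*, *Ccl7* and *Cxcl10*, with *Cxcl9* at 1035 CPM, *Ccl2* at 1169.9 and *Lyz2* at 8113. Cluster 2 (18 and 256 cells) held microglial genes, with *Sparc* at 616 CPM and *Cxcl13*, whose product draws B cells, at 4339.6 CPM, and the 10 homeostatic genes at 5472 CPM in sum against 1349.7 to 2603 in clusters 1, 3 and 4. Its median depth of 1709.5 UMIs was the lowest of the 14 clusters. Cluster 3 (40 and 186 cells, median 6079.5 UMIs) was led by *Tnip3*, *Retnla*, *Tnfsf9*, *Ccl17* and *Mgl2*, with the dendritic cell gate gene *Cd209a* at 834 CPM, *Ccr2* at 422, *Tnfsf9* at 579 and *Il1b* at 3842. Its *C1qa* level of 2472 CPM was below the 6185 to 9835 of clusters 1, 2 and 4, and its *Apoe* level of 1376 below their 13176 to 14313. Cluster 4 (18 and 178 cells) was led by *Ms4a7*, *Ccl4*, *Lilra5* and *Cd86*, with *Ccl4* at 7278 CPM, *Ccl3* at 2106, *Cd86* at 1559.7 and *Il1b* at 3799. Cluster 9 (2 and 68 cells) carried haemoglobin transcripts (*Hbb-bs* at 19966 CPM) together with *Lpl* at 426 and *Ccl4* at 3988.

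Composition differed with depth. In FMC_new, the homeostatic microglia list was at 3319 CPM in 420 members below 2000 UMIs, at 2713 in 699 members of 2000 to 5000 UMIs and at 1666 in 439 members above 5000. In C-ON it was at 2682, 2384 and 1439 CPM in 27, 85 and 96 members. *Cd209a* went the other way, at 38.4, 99.6 and 247 CPM in FMC_new and 72.5, 147 and 277.5 in C-ON. *Tnfsf9* was at 21.7, 72.9 and 208 CPM in FMC_new, while in C-ON it was at 72.5, 218 and 206 and did not rise above 5000 UMIs. The part of the UMI limits in these differences was not tested. At 1000 UMIs, 38 of 206 members of C-ON had a *Ccr2* UMI, 22 had a *Cd209a* UMI and 9 had both, and in FMC_new these were 165, 100 and 33 of 1517.

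Levels of members also differed between the 2 libraries of this single condition, for which there is no test. Among genes at 100 CPM or more in either library, and beside *Gh*, *Prl*, *Pomc* and the immunoglobulin genes with *Jchain*, which were left out of this ranking, large ratios were seen for *Cga* and *Chgb* of pituitary cells (0.851 and 0 CPM in C-ON, 329 and 229 in FMC_new), *Cxcl13* (15.3 and 938), *Hbb-bs* (23.0 and 1369) and the neutrophil genes *S100a9* and *Ngp* (0 in C-ON, 134 and 107 in FMC_new). Higher in C-ON were *Cep85* (113 and 9.99 CPM) and the oligodendrocyte genes *Opalin* (181 and 33.3) and *Tubb4a* (1237 and 291). Each of these was higher in C-ON in all 4 gates. *Xist* was at 41.7 and 310.5 CPM in members and was lower in C-ON in microglia-gated (99.9 and 442), border-gated (95.4 and 206) and dendritic cell-gated cells (60.4 and 205) as well. *Cxcl13* was also unequal in microglia-gated cells, at 747 and 2798 CPM. *Hbb-bs* went the other way in microglia-gated cells (1977 in C-ON and 892 in FMC_new). In border-gated (29.7 and 1686) and dendritic cell-gated cells (17.6 and 438) its direction was that of the members.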

How the data were processed

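Single-cell RNA was measured in 2 libraries of pooled Nf1OPG optic nerves. The authors aligned reads to mm10 with Cell Ranger 7.2.0 (per the file headers and the submitters' processing notes) and deposited raw UMI counts per gene and barcode. Whether intronic reads were counted is not given in the sources used here, and the notes also name Seurat 5.2.1. The counts were used as deposited. Barcodes with 500 to 5000 genes, 500 to 20000 UMIs and at most 5% mitochondrial UMIs were kept. No doublets were removed. Totals of the members were 1174784 UMIs in C-ON and 6609269 in FMC_new.

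UMIs were summed per library and gate and tested with the edgeR 4.0.16 quasi-likelihood test (R 4.3.3; TMM, filterByExpr, library as a block, all 4 gates in 1 fit, Benjamini-Hochberg over all genes tested). Gates of the same library share the pooled mice, and their deviations from the gate means correlated at 0.57 to 0.65. CPM values were computed here from the summed UMIs; intervals are exact (Poisson or Clopper-Pearson, 95%). Clusters came from scanpy 1.11.5 (2000 variable genes, 20 components, resolution 0.5). DESeq2 1.42.0 and other gates, filters and scalings were tried as alternatives. The edgeR step was tested on simulated data. Members and gene lists were chosen with earlier results of these data known. Named genes were the gate genes, 8 genes of the study (*Ccl2*, *Ccl3*, *Ccl4*, *Ccl5*, *Mdk*, *Csf1r*, *Neu4*, *Gpr17*), up to 4 genes per list and comparison by size of change, the 10 largest changes in each direction at 50 CPM or more, the 10 largest ratios in each direction between libraries (immunoglobulin genes, *Jchain*, *Gh*, *Prl* and *Pomc* aside), and *Gh* and *Prl*. *Cd74*, *Cd86*, *H2-DMa*, *H2-DMb1*, *Ighm*, *Psmb8*, *Lyz2*, *Ccr2* against dendritic cell-gated cells, cluster genes and the genes that joined with the filter were named after their values were seen. Some genes are not reported here. RefSeq promoters came from a table of GRCm38.p6 (11 of 14 genes looked up had one).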

Additional observations from a re-analysis of the deposited data

How the results depend on the processing

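Without the library block, 715 genes were called against microglia-gated, 88 against border-gated and 1086 against dendritic cell-gated cells, in place of 2713, 587 and 3567. With RLE size factors in place of TMM they were 2639, 568 and 3557. DESeq2 called 1567 and 2297 genes against the first and the last gate. With no filter on low counts, 1099 genes were called against border-gated cells. With members also required to have C1q genes at 0.5% and MHC-II genes at 1% of UMIs, 1393 were called against microglia-gated cells, and with the filter on other cell types 1965 against dendritic cell-gated cells. Each library alone left no test; the called genes kept their direction in 2568 to 2713, 543 to 587 and 3416 to 3564 cases. The share of members in C-ON was 2.99% with a looser gate, 0.0679% with fewer than 2 UMIs of other cell types (6 members, so no fit was run with that limit), 1.14% with the filter on other cell types and 1.65% with the gate on shares. In FMC_new it was 6.84% with a stricter gate, 11.4% with a looser gate, 0.0535% with fewer than 2 such UMIs (9 members), 8.77% with no limits on cells, 3.59% with the filter, 6.1006% with the gate on shares and 8.35% without the highest doublet scores. Directions turned for genes of other cell types and 1 chemokine. With the filter, log2 fold changes against microglia-gated cells were 0.60 for *Ccl4*, −0.98 for *Cd79b*, −0.41 for *Mog* and −0.79 for *Mag*, and against border-gated cells −0.56 for *Mag* and −0.79 for *Mog*. With the gate on shares they were −0.0086 for *Mog* and −0.12 for *Mag* (microglia-gated), −1.73 for *Cd79a*, −0.44 for *Mag* and −0.53 for *Mog* (border-gated), and −0.67 for *Cd79a*, −0.58 for *Mzb1* and −0.94 for *Jchain* (dendritic cell-gated). *Pomc* was at −0.37 in C-ON alone and 1.78 in FMC_new alone against microglia-gated cells, and at −0.28 and 1.69 against dendritic cell-gated cells. Removing called doublets changed none of the 3 counts and could not, since no cell of the 4 gates was called a doublet. The causes were not tested. The filter, the gate on shares and the doublet scores were chosen after seeing the data.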

Other observations

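Further lists, and comparisons of lists not given above, are described as counts of genes higher and lower in members, with the counts under the filter on other cell types in brackets. Type I interferon response genes were 1 and 0 of 12 against microglia-gated cells (2 and 0), 1 and 1 against border-gated cells (4 and 0, among them *Isg15* and *Rsad2*) and 1 and 3 against dendritic cell-gated cells (4 and 0). *Ifitm3*, an antiviral membrane protein, was at 901 and 1005 CPM in members, above the 444 and 403 of microglia-gated cells (log2 fold change 1.24 ± 0.15) and below the 1342 and 1738 of border-gated cells (−0.67 ± 0.15, not called with the filter). Cytokine genes were 1 and 2 of 11 (1 and 2), 2 and 0 (2 and 0) and 5 and 2 (5 and 0). The interleukin-1 antagonist *Il1rn* was higher than in border-gated cells, at 29.8 and 76.3 CPM against 7.43 and 5.80 (3.18 ± 0.49). Genes of cholesterol and lipid handling were 1 and 1 of 8 (2 and 1 of 7), 0 and 1 (0 and 1) and 4 and 1 (3 and 1).

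Immediate early and heat shock genes, which dissociation can raise, were 0 and 6 of 12 against microglia-gated cells (2 and 1), 0 and 4 against border-gated cells (0 and 1) and 6 and 1 against dendritic cell-gated cells (9 and 1). *Jun* was at 1336 and 1253 CPM in members, 2902 and 2739.8 in microglia-gated cells, 3226 and 2333 in border-gated cells and 498 and 466 in dendritic cell-gated cells. Receptors of midkine and CSF1 were 2 and 3 of 8 (3 and 2), 0 and 2 (1 and 1) and 3 and 3 (3 and 1). Chemokine receptors were 2 and 2 of 6 (4 and 2), 2 and 1 (3 and 0) and 1 and 0 (2 and 0). Growth factors were 3 and 2 of 8 (0 and 2 of 5), 0 and 1 (1 and 2) and 4 and 0 (3 and 0). Disease-associated microglia genes were 4 and 4 of 13 (4 and 4), 4 and 1 (5 and 1) and 11 and 1 (10 and 0).

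Border macrophage genes were 5 and 1 of 10 against microglia-gated cells (5 and 1) and 6 and 0 against dendritic cell-gated cells (6 and 0). Homeostatic microglia genes were 8 and 1 of 10 against dendritic cell-gated cells (8 and 0). Monocyte genes were 1 and 0 of 10 against border-gated cells (1 and 1 of 8) and 5 and 2 against dendritic cell-gated cells (3 and 2), and dendritic cell genes were 4 and 1 of 10 against border-gated cells (4 and 2). Interferon-gamma response genes were 4 and 0 of 13 against dendritic cell-gated cells (8 and 0). MHC class I presentation genes were 0 and 0 of 9 against border-gated cells (1 and 0) and 0 and 5 against dendritic cell-gated cells (0 and 3). Complement genes were 2 and 4 of 11, Fc receptors 1 and 0 of 5 and lysosomal genes 2 and 2 of 13 against border-gated cells (2 and 3, 1 and 0, and 1 and 2). Clearance receptors were 3 and 2 of 8 against microglia-gated cells (4 and 2). Macrophage transcription factors were 1 and 2 of 10 against border-gated cells (1 and 2) and 5 and 3 against dendritic cell-gated cells (5 and 2).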
